A study of Homo sapiens with 4 samples.

Results

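The LDL receptor related proteins LRP1, LRP1B, LRP2, LRP4, LRP5 and LRP6 were described by the m7G peaks listed over the exons of their genes in HL-60 and HL60/MX2 cells. The 6 genes were chosen by their peak counts in these lists, with the difference between the lines in LRP1B and LRP2 already known, so these counts are a description and no test was made on them. A peak was taken when 1 bp or more of it lay on an exon of any transcript of the gene, in the same orientation. This gave 22 of the 8070 listed peaks of HL-60 and 9 of the 8122 listed peaks of HL60/MX2, 31 in all. None of them overlapped a same-strand exon of another protein-coding gene, and other kinds of genes were not checked.

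In m7G MeRIP-seq, fragmented mRNA is enriched with an antibody against N7-methylguanosine, and regions with more reads than expected are called as peaks. HL-60 is a human acute myeloid leukemia line, and HL60/MX2 is a drug-resistant line derived from it. The peaks of each line came from 1 enriched library of decapped poly(A) RNA from cultured cells, labelled WT for HL-60 and drug-resistant for HL60/MX2. No treatment other than the enrichment is given, and the input libraries were not analysed here. With 1 library per line there was no replicate, so no test between the lines was possible, and all intervals below are 95% intervals of counting error only. The lists give no counts of reads, so they show neither the sequencing depth nor the level of each mRNA. The paper measured mRNA levels in both lines by RNA sequencing, and those values were not used here.

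These receptors share a common build. Class A repeats are small cysteine-rich units that bind ligands, EGF-like repeats separate the parts, and propellers built around a YWTD motif release the ligand inside the cell or, in some members, bind Wnt antagonists. LRP1, LRP1B and LRP2 are giant endocytic receptors, LRP4 receives agrin at the nerve-muscle synapse, and LRP5 and LRP6 are Wnt co-receptors. LRP2, also named megalin, is best known from the kidney tubule, and LRP1B is frequently deleted in tumours. By pattern, 31, 29 and 35 class A repeats were found in LRP1, LRP1B and LRP2, against 7 in LRP4 and 3 each in LRP5 and LRP6. Repeat numbers below follow this count, which leaves out any repeat that departs from the pattern and can differ from published numbering.

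The sequences that show the form of the LRP1B peaks in HL-60 are the 4 coding peaks shorter than 30 bp. They are printed on the strand of the gene, with the listed peak in capitals and the adjoining bases of the intron in lower case up to a length of 30 bases (hg19, minus strand).
LRP1B exon 24, chr2:141643702-141643731: CGGGGAAAGCTTTCTGAAAGTGGAGgtaca
LRP1B exon 37, chr2:141473658-141473687: ctattatttctcctagGTAACATATATTGG
LRP1B exon 86, chr2:141027794-141027823: TACCTGTGTGTCTgtgagtatttaatcaag
LRP1B exon 90, chr2:140992352-140992381: GATTTGAAAGGACCACTAACTGCTGGGgtg
Each of these peaks met an intron at an end of its exon, with no base of the intron in the peak. The bases next to the capitals were gt in exons 24, 86 and 90 and ag in exon 37, the usual ends of an intron. This is common in the list, where 70.6% of all HL-60 peaks over an exon had an end at an exon end.

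In HL-60, LRP1B carried 9 peaks (4.12-17.1, exact Poisson interval), LRP2 carried 8 (3.45-15.8), LRP4 carried 3 (0.619-8.77), LRP5 and LRP6 carried 1 each (0.0253-5.57) and LRP1 carried 0 (up to 3.69). In HL60/MX2, LRP2 carried 4 peaks (1.09-10.2), LRP1 carried 3 (0.619-8.77), LRP1B carried 2 (0.242-7.22), and LRP4, LRP5 and LRP6 carried 0 each (up to 3.69). Only LRP1B and LRP2 had a peak in both lists, and the intervals of the lines overlapped for each of the 6 genes.

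**Figure D1:**
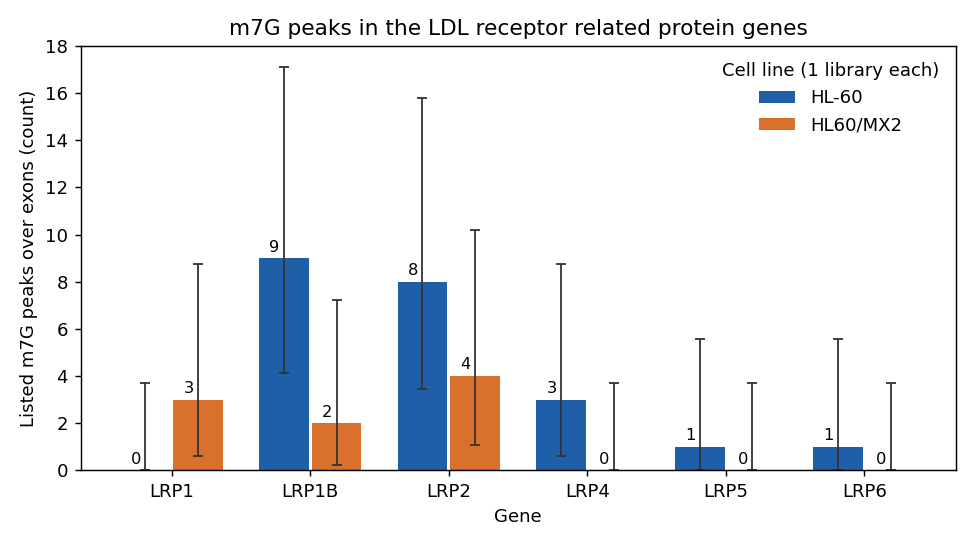
Number of listed m7G peaks over the exons of each gene (bars, from 0) in HL-60 and HL60/MX2, 1 library each, with exact Poisson 95% intervals of counting error. LRP1B (9 and 2) and LRP2 (8 and 4) held most of the peaks, and LRP1 was the only gene of the 6 with more in HL60/MX2 (0 and 3).

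Thus at least 1 peak was listed for 5 of the 6 genes in HL-60 and for 3 of 6 in HL60/MX2. Over all 20163 protein-coding genes the shares were 27.0% and 29.5%. The genes are long, with a median of 13239 bp of summed exon against 4388 bp over all genes. Per kb of exon, the 6 genes together reached 0.28 peaks in HL-60 against 0.0708 over all protein-coding genes, and 0.114 against 0.0722 in HL60/MX2. Since the 6 genes were chosen by these counts, higher shares and densities can follow from the choice. They are no evidence that the family is enriched.

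LRP1B had the highest density among the members in HL-60, at 0.55 peaks per kb, followed by LRP2 at 0.497 and LRP4 at 0.343. In HL60/MX2 the order was LRP2 at 0.248, LRP1 at 0.144 and LRP1B at 0.122 peaks per kb, and neighbours in both orders had overlapping count intervals.

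**Figure D2:**
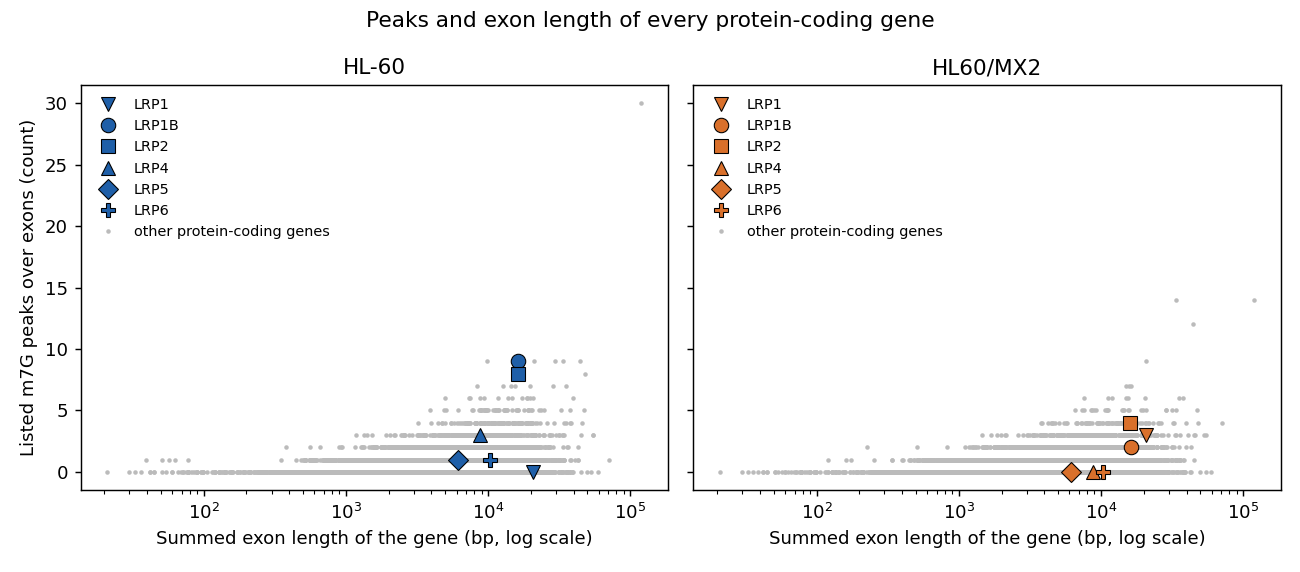
Listed m7G peaks (vertical axis, count) against the summed exon length of each protein-coding gene (horizontal axis, bp, log scale) in HL-60 (left) and HL60/MX2 (right), with the 6 LRP genes marked. LRP1B (9 peaks) and LRP2 (8 peaks) lie near the upper edge of genes of their length in HL-60, and in HL60/MX2 LRP1B (2 peaks) does not.

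Across the transcriptome, 25 genes carried at least 10 peaks in both lists together, and LRP1B (11 peaks) and LRP2 (12 peaks) were among them. Of these 25 genes, 9 (36.0%) had at least 1.5 times as many peaks in HL-60 and 5 (20.0%) at least 1.5 times as many in HL60/MX2. LRP1B and LRP2 both belonged to the 9, and both reached 10 peaks mainly through HL-60, so their place there is a description. The counts of LRP1B, 9 and 2, equalled those of PIEZO2, a mechanosensitive channel gene named here after its values were seen.

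Among the 1869 other genes with a summed exon length within a factor of 1.5 of that of LRP1B (16355 bp), the median was 0 HL-60 peaks and 1 HL60/MX2 peak. In this group 1 gene had as many peaks as LRP1B in HL-60, and 403 had as many or more in HL60/MX2. Of the 1932 other genes within the same factor of LRP2 (16109 bp), 2 had 8 or more peaks in HL-60 and 53 had 4 or more in HL60/MX2. Those 2 were PIEZO2 and LRP1B, which is itself one of the chosen genes. The HL-60 count exceeded the HL60/MX2 count by 7 or more, as in LRP1B, in 1 of the other genes of its length. It did so by 4 or more, as in LRP2, in 32 of the other genes of that length, LRP1B among them. In the other direction, HL60/MX2 exceeded HL-60 by as many as 9 peaks in both sets of genes, a difference of -9.

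LRP1B lies on chromosome 2 of hg19 from 140988992 to 142888585 on the minus strand, with 91 exons in its reference transcript. Of its 9 HL-60 peaks, 7 measured under 50 bp, whereas 16.98% of the whole HL-60 list did. The other HL-60 peaks measured 103 and 301 bp, and the HL60/MX2 peaks 64 and 398 bp. Counting peaks of at least 50 bp, LRP1B carried 2 on each side, and the difference of 7 between the lines became 0.

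The HL-60 peaks of LRP1B began upstream of its HL60/MX2 peaks, which started 10926 nt from the 5′ end of the mRNA. The first HL-60 peak, of 25 bp in exon 24, lay 4227 nt from the 5′ end of this mRNA of 15850 nt. It lay within the propeller stretch from residue 1253 to 1530, with a score of 302.35. The next was the peak of 14 bp at the start of exon 37 (residues 1965 to 1969, score 263.05), also in a propeller stretch.

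A peak of 45 bp at the start of exon 60 (chr2:141232862-141232906, residues 3142 to 3157) had the lowest score of the gene, 60.33, at percentile 5.56 of the HL-60 list. The highest score of the gene in HL-60, 539.71 at percentile 90.8, belonged to a peak of 103 bp in exon 65 (chr2:141201916-141202018). This peak covered 24 residues of class A repeat number 20, one of the ligand-binding units.

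Further along, 2 short peaks lay over EGF-like repeats near the membrane. These were a peak of 48 bp in exon 85 (chr2:141032120-141032167, score 162.7) over repeat 19 of 21, and the peak of 13 bp in exon 86 (score 247.81) over repeat 21. No peak of either line covered the transmembrane stretch.

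The cytoplasmic tail of LRP1B, which carries the signals for endocytosis, held another 2 HL-60 peaks. The peak of 27 bp filled the last bases of exon 90 (score 334.94), and a peak of 301 bp began with the first base of exon 91 (chr2:140990595-140990895, score 492.9). On the spliced mRNA they adjoined, with the first ending at nucleotide 13946 and the next starting at 13947.

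The larger of these peaks ran from residue 4554 over the end of the protein at residue 4599 into the 3′UTR, where most of its bases lay. Under it was the NPxY motif at residues 4559 to 4562, the later of the 2 such motifs of the tail. NPxY motifs bind adaptors of clathrin-coated pits. Counting the adjoining peaks once, a choice made after seeing the data, gave 8 peaks for LRP1B in HL-60.

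The last HL-60 peak, of 12 bp, lay in the 3′UTR close to the end of the transcript (chr2:140988996-140989007, score 155.77). In HL60/MX2, the peak of 398 bp also lay in the 3′UTR (chr2:140989687-140990084, score 244.7), 680 nt upstream of it. The other HL60/MX2 peak (chr2:141130643-141130706, exon 69, score 540.63) covered parts of class A repeats 23 and 24, and its nearest HL-60 peak was 362 nt away on the mRNA. No LRP1B peak of HL-60 overlapped an LRP1B peak of HL60/MX2.

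**Figure D3:**
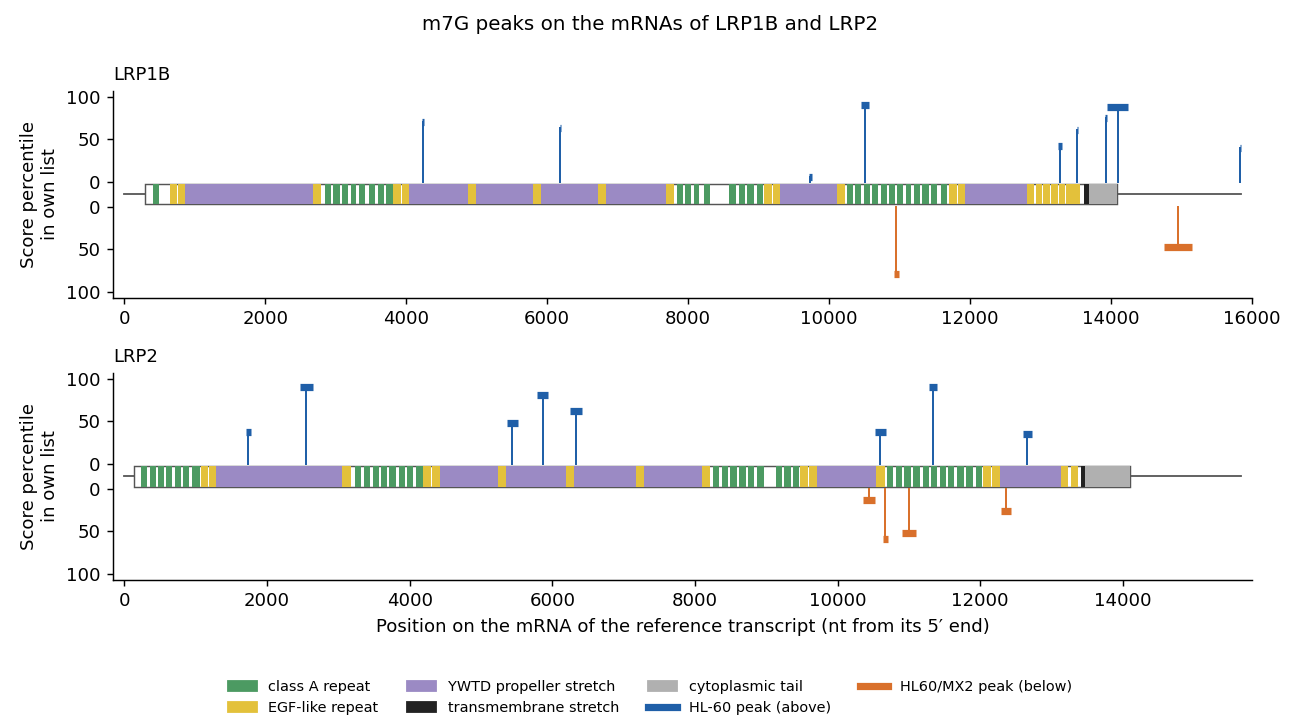
Peaks on the mRNAs of LRP1B and LRP2 (horizontal axis, nt from the 5′ end), HL-60 above and HL60/MX2 below, drawn to scale at the percentile of their score within their own list (vertical axes). The box is the coding sequence with the repeats found by pattern, and the lines beside it are the UTRs. The HL60/MX2 peaks of LRP2 lie from 10352 nt on, whereas those of HL-60 start at 1701 nt.

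**Figure D4:**
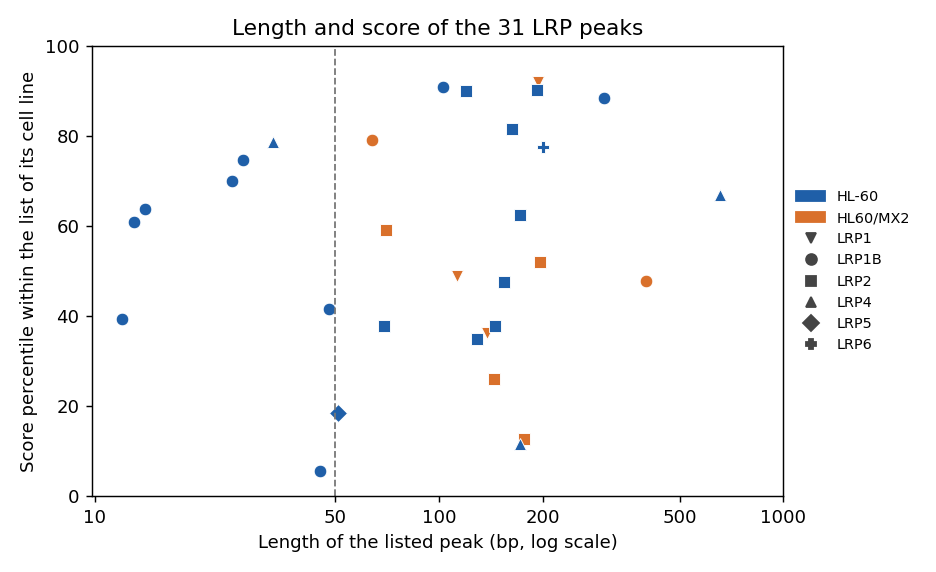
Length (horizontal axis, bp, log scale) and score percentile within the list of the cell line (vertical axis) of the 31 peaks, with the dashed line at 50 bp. Of the 8 peaks under 50 bp, 7 are LRP1B peaks of HL-60 and 1 is an LRP4 peak of HL-60.

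LRP2 lies on chromosome 2 from 169983619 to 170219044 on the minus strand and has 79 exons. Its peaks differed in form from those of LRP1B. The HL-60 peaks were 69 to 192 bp long with a median of 150 bp, the HL60/MX2 peaks 70 to 197 bp with a median of 160 bp, and all 12 lay in the coding sequence. Leaving out peaks under 50 bp therefore did not change the counts of 8 and 4.

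In HL-60, the first 4 peaks of LRP2 lay over propeller stretches. They were in exon 13 (chr2:170134393-170134461, score 149.68), exon 17 (chr2:170115536-170115727, score 527.12), exon 32 (chr2:170082945-170083098, score 183.5) and exon 35 (chr2:170072778-170072940, score 399.06). The peak of exon 17 filled 192 of the 193 bp of its exon and had the highest score of LRP2 in HL-60, at percentile 90.3.

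The fifth HL-60 peak (exon 37, chr2:170068478-170068649, score 255.4) ran from EGF-like repeat 7 into the next propeller stretch. It was the last HL-60 peak in the part of LRP2 that was free of HL60/MX2 peaks. From there to the first HL60/MX2 peak were 3937 nt of mRNA.

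All 4 HL60/MX2 peaks of LRP2 lay between residues 3406 and 4099. The first covered the end of exon 53 (chr2:170034313-170034489) and had a score of 85.05, at percentile 12.8, and the next lay in exon 54 (chr2:170032921-170032990, score 329.53). The others lay in exon 56 (chr2:170030478-170030674, score 274.89), over class A repeats 27 and 28, and in exon 66 (chr2:170010970-170011113, score 134.43), which was covered whole.

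After the first HL60/MX2 peak of LRP2, HL-60 had 3 peaks, of which the last (residues 4154 to 4197) lay past the last HL60/MX2 peak. The peak of exon 54 (chr2:170032954-170033098, score 149.68) covered EGF-like repeat 12, the peak of exon 58 (chr2:170028525-170028644, score 520.84) covered a whole exon with class A repeat 30, and that of exon 68 (chr2:170007408-170007536, score 140.03) covered a whole exon within the last propeller stretch. The peaks of exons 58 and 68 lay 179 and 167 nt from the nearest HL60/MX2 peak.

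Exon 54 of LRP2 was the only place where the lines overlapped. The shared part was 37 bp (chr2:170032954-170032990), 25.5% of the HL-60 peak and 52.9% of the HL60/MX2 peak, and encodes residues 3501 to 3513 at the border between EGF-like repeat 12 and the next class A repeat. Its middle 30 bases are printed because no other stretch of these genes was listed in both lines.
LRP2 exon 54, chr2:170032958-170032987: TGAGTGGCAGCACCTACTGCATGCCCATGT
The HL60/MX2 peak of exon 53 ended with the last base of its exon, next to the first base of the HL-60 peak of exon 54 on the spliced mRNA. Shared peaks were thus 1 of 22 in HL-60 and 1 of 9 in HL60/MX2, against 6.13% and 6.09% of the whole lists.

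LRP1 lies on chromosome 12 from 57522266 to 57607144 on the plus strand, with 89 exons, and had its 3 peaks in HL60/MX2. The peak in exon 43 (chr12:57584588-57584781, 194 bp) covered 66 residues of a propeller stretch and had the highest score of all LRP peaks in HL60/MX2, 850.26 at percentile 92. The peak in exon 52 (chr12:57589054-57589166, score 252.14) covered 27 residues of class A repeat 17, and that in exon 61 (chr12:57593046-57593183, score 181) covered 47 residues of another propeller stretch. Of the 1652 genes with at least 3 peaks in both lists together, 7.38% had none in HL-60, as LRP1 did. LRP1 entered this group at its lower limit, through HL60/MX2 alone. The group also holds genes with more peaks, so the share is not that of genes with 3 peaks.

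LRP4 lies on chromosome 11 from 46878268 to 46940193 on the minus strand and had its 3 peaks in HL-60. The peak of 172 bp covered the whole of exon 25 (chr11:46898017-46898188) within the propeller stretch from residue 1044 to 1312, with a score of 73.97 at percentile 11.6. In the last exon, a peak of 33 bp over the cytoplasmic tail (chr11:46880834-46880866) scored 368.5. The longest LRP peak of either list, 654 bp, lay in its 3′UTR (chr11:46878276-46878929, score 283.33). LRP4 was among the 9.75% of the 1652 genes with at least 3 peaks that had none in HL60/MX2. It too stood at the lower limit of that group, through HL-60 alone, so the same limit holds.

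LRP5 and LRP6 each carried 1 HL-60 peak, over a propeller stretch. In LRP5, on chromosome 11 from 68080059 to 68216743, the peak of 51 bp began exon 12 (chr11:68181157-68181207) and had a score of 90.44, at percentile 18.4. In LRP6, on chromosome 12 from 12268959 to 12419978, the peak of 201 bp filled most of the 212 bp of exon 14 (chr12:12301876-12302076) and had a score of 360.03, at percentile 77.6. A search for exact PPPSP or PPPTP found 3 matches in the tail of each, and looser forms of the motif were not counted. Motifs of this type are phosphorylated in Wnt signalling, and no peak lay over these tails.

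**Figure D5:**
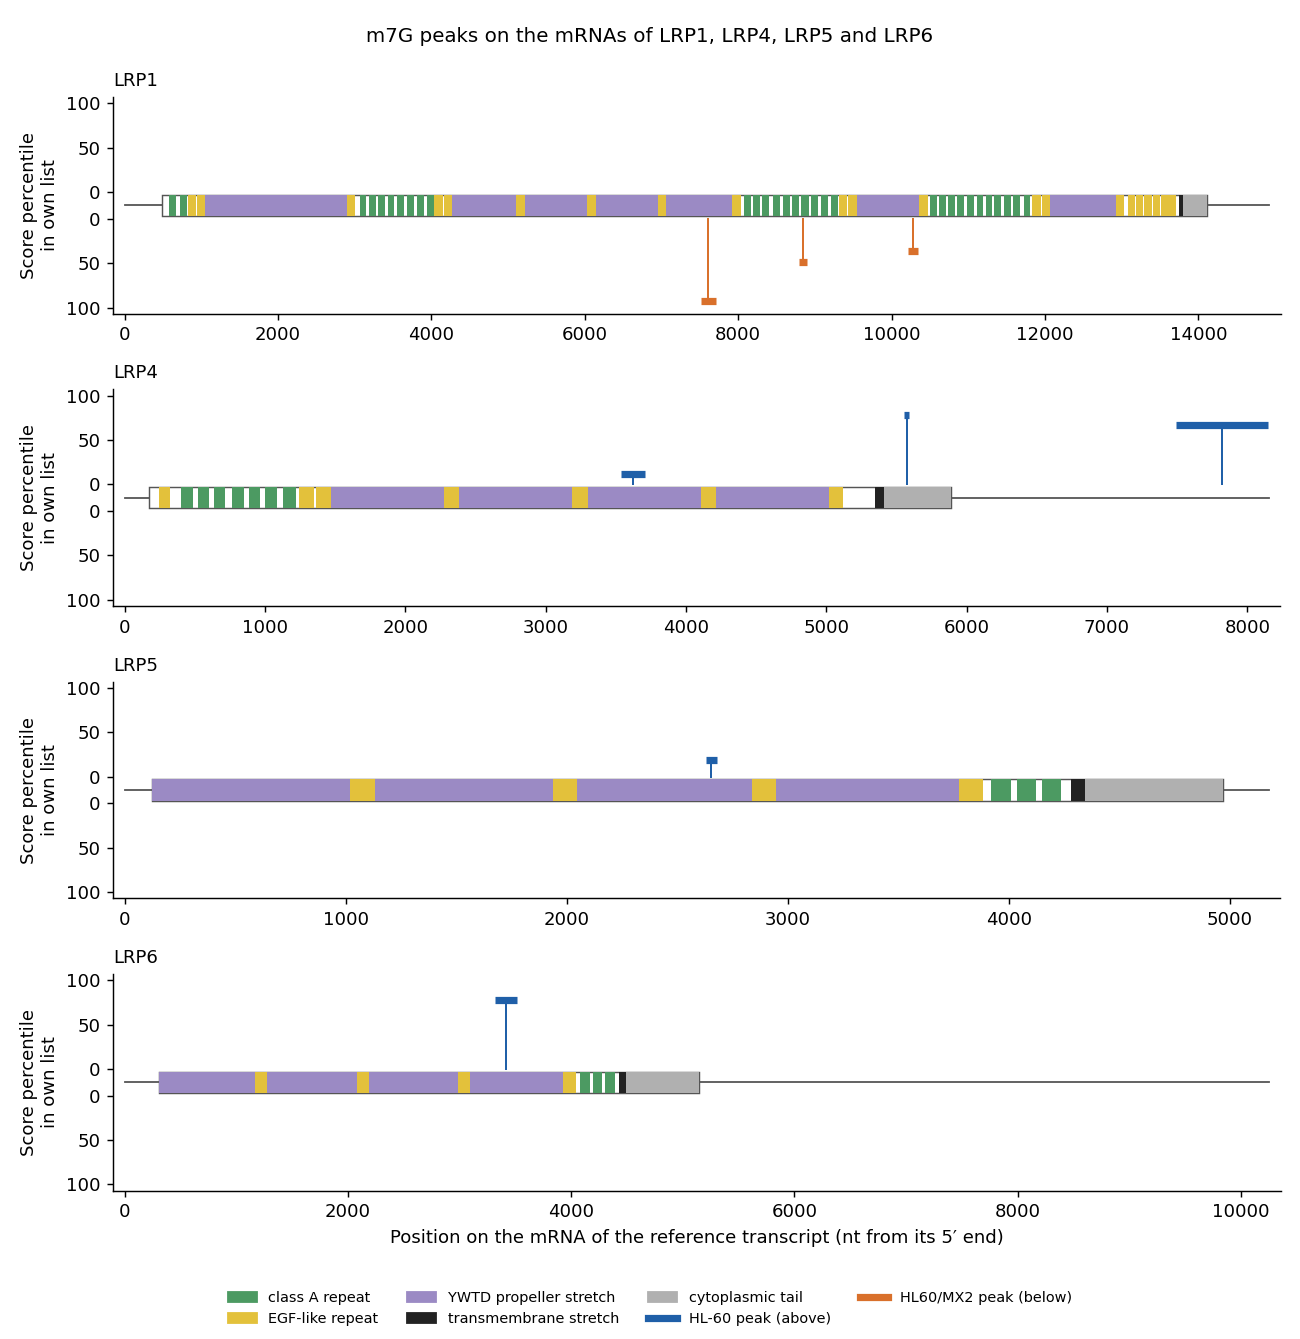
Peaks on the mRNAs of LRP1, LRP4, LRP5 and LRP6 (horizontal axes, nt from the 5′ end), HL-60 above and HL60/MX2 below, at the percentile of their score within their own list (vertical axes). LRP1 has 3 peaks in HL60/MX2 and 0 in HL-60, while LRP4 (3 peaks), LRP5 (1 peak) and LRP6 (1 peak) have theirs in HL-60.

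Over all 6 genes, 19 of 22 HL-60 peaks (86.4%, 65.1-97.1%, exact Clopper-Pearson) and 8 of 9 HL60/MX2 peaks (88.9%, 51.8-99.7%) lay mainly in the coding sequence. Over the whole lists the shares were 70.5% of 6602 peaks and 68.5% of 6634 peaks placed on a reference transcript. The 3′UTR held 3 and 1 of the LRP peaks, against 23.1% and 20.1% of the lists. The 5′UTR held 0 in both lines, against 6.48% and 11.4% of the lists. Coding sequence made up 13632 of 14923 nt of the LRP1 mRNA, 13797 of 15850 in LRP1B and 13965 of 15657 in LRP2. It made up 5715 of 8155 nt in LRP4, 4845 of 5177 in LRP5 and 4839 of 10252 in LRP6. The peaks were not tested against this makeup, so these shares show no preference for a region.

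Past the midpoint of the mRNA lay 13 of 22 LRP peaks in HL-60 and 9 of 9 in HL60/MX2, where 36.9% and 33.2% of all placed peaks did. For LRP1B the numbers were 7 of 9 and 2 of 2, and for LRP2 they were 3 of 8 and 4 of 4. The HL60/MX2 peaks of LRP1 were also all in this part.

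By repeat type, propeller stretches took up 53.4% of the residues of the 6 proteins. They made up 66.3% of the 685 residues under the HL-60 peaks and 59.7% of the 372 residues under the HL60/MX2 peaks. Class A repeats took up 16.6% of the proteins, 7.59% of the residues under HL-60 peaks and 23.9% of those under HL60/MX2 peaks. Peaks covered 8.34% of the LRP2 protein in HL-60 and 4.27% in HL60/MX2, against 3.09% and 0.478% of LRP1B.

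The class A repeats stand in 4 clusters in LRP1, LRP1B and LRP2. In LRP1B and LRP2, the peaks over class A repeats (1 in each line for LRP1B, 1 HL-60 peak and 2 HL60/MX2 peaks for LRP2) all lay in cluster 4, which holds 12 of 29 repeats in LRP1B and 11 of 35 in LRP2. The peak over a class A repeat of LRP1 lay in cluster 3, with 10 of 31 repeats. The first cluster of these receptors, near the amino terminus, carried no peak.

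Many peak boundaries lay at exon ends, in the LRP genes and in the whole lists. The authors kept peaks over protein-coding exons, and whether the listed intervals were cut at exon ends is not stated. Of the LRP peaks, 20 of 22 in HL-60 and 8 of 9 in HL60/MX2 started or ended at an exon end, against 70.6% and 71.5% of all peaks over an exon. A whole exon was covered by 3 HL-60 peaks (LRP2 exons 58 and 68, LRP4 exon 25) and by 1 HL60/MX2 peak (LRP2 exon 66).

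Scores were compared only within a list, since their scale is not stated. The LRP peaks of HL-60 scored from 60.33 to 539.71 with a median of 259, where the whole list had a median of 197, and 13 of 22 were at or above that value. Those of HL60/MX2 scored from 85.05 to 850.26 with a median of 252, where the list had a median of 260, and 4 of 9 were at or above it. With both lists restricted to scores at or above their own median, LRP2 kept a difference of 2 peaks and LRP1B of 5.

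Motifs were searched in each peak on the strand of the gene only. The 2 motifs are CUGKR and GGAAR, which the paper named as most conserved in its peaks. They come from these same data, so their occurrence here is a description. One motif was CTGGA or CTGGG, or the same with T in the fourth place, CTGTA or CTGTG, and the other was GGAAA or GGAAG, and the 2 motifs can overlap. The first occurred in 14 of 22 HL-60 peaks and 5 of 9 HL60/MX2 peaks, against 56.0% and 57.2% of all listed peaks. The other occurred in 10 of 22 and 4 of 9, against 43.9% and 43.0%. The median GC content was 46% in the LRP peaks of HL-60, against 45.2% over the list, and 54.3% in those of HL60/MX2, against 48.0%.

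Windows of 30 bases under a coding peak with the most matches in their gene are printed for 4 genes to show how these motifs sit in the receptors' coding sequence, with the matches in capitals.
LRP1 exon 61, HL60/MX2, chr12:57593046-57593075: acgtctaCTGGAccgaCTGGGAAAcaaagt
LRP2 exon 13, HL-60, chr2:170134409-170134438: agagcctttCTGGGgaacctaagCTGGAAA
LRP4 exon 25, HL-60, chr11:46898132-46898161: ttgatgccattggccGGAAAgtataCTGGA
LRP6 exon 14, HL-60, chr12:12302042-12302071: tgagctcagttccgagtcagaacCTGGAAA
In the LRP1 and LRP2 windows, 3 matches stood within 30 bases, and in the LRP4 and LRP6 windows 2. The window of LRP1B, in exon 65 in HL-60, held 1 match and is not printed. The match of a motif is a description of the sequence, and the LRP5 peak held neither motif.

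Each listed peak is named with a running number that rises along its chromosome. From the last listed peak before LRP1B to the first one after it, this number rose by 2140 over 6.13 Mb (349 per Mb) in HL-60. In HL60/MX2 the rise was 1436 over 5.31 Mb (271 per Mb). Around LRP2 it rose by 385 per Mb (HL-60) and by 326 per Mb (HL60/MX2). The rise was also larger in HL-60 around LRP4 (338 and 294 per Mb), LRP5 (240 and 228) and LRP6 (344 and 278). Only around LRP1 was it smaller in HL-60, at 197 per Mb against 297 in HL60/MX2. These LRP1 values rest on rises of 39 over 0.198 Mb and 47 over 0.158 Mb. Around LRP5 the stretch measured 3.64 Mb in HL-60 and 0.276 Mb in HL60/MX2. Each stretch ends at listed peaks of its own line, so the lines do not cover the same region. Divided by the length of the genome, the highest numbers came to 304 and 252 per Mb. Whether each number stands for 1 called region is not stated, and the part of these densities in the LRP1B and LRP2 counts was not tested.

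Other genes of these pathways were described by lists of genes. Of 12 chaperones, ligands and adaptors, 4 were listed in HL-60 and 6 in HL60/MX2, and of 25 Wnt and synapse partners 8 and 9 were. Over all protein-coding genes the shares were 27.0% and 29.5%.

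The ligands RELN (4 HL-60 peaks and 2 HL60/MX2 peaks), an extracellular protein of neuronal migration, and APOB (1 and 3), the protein of LDL particles, had the most peaks in that group, followed by the adaptors DAB1 (2 and 1) and DAB2 (0 and 3). Among the Wnt and synapse partners, FZD3, a Wnt receptor, had 2 in each line and MUSK, the kinase beside LRP4, had 2 and 1, ahead of AXIN2, FZD6 and KREMEN1 with 2 each in both lists together. Per kb of exon, these 2 groups carried from 0.0668 to 0.1 peaks, against 0.0708 and 0.0722 over all genes. The 6 LRP genes were chosen by their peak counts, so their densities are not compared with those of these groups.

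Cell type could not be checked, because a peak is not a level of expression. Of 12 myeloid marker genes, CTSG had a peak in HL-60, CD33 and CSF3R had a peak in HL60/MX2, and the granule genes MPO and ELANE had 0 in both. Of 8 marker genes of the kidney proximal tubule, where LRP2 is a main receptor, 1 was listed in HL-60 and 5 in HL60/MX2. Of 9 neuron markers, 3 were listed in each line. These counts stand beside 27.0% of all genes in HL-60 and 29.5% in HL60/MX2. The part of cell type markers in the LRP counts was not tested.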

How the data were processed

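The 2 peak lists of the m7G-enriched libraries of HL-60 and HL60/MX2 cells were analysed. The authors trimmed reads with Cutadapt (1.9.3 per the submitters' notes), aligned them to hg19 with Hisat2 (2.0.4), called peaks with MACS (version not given in the sources used here) and kept those over protein-coding exons. The score of each peak is the value the authors deposited, and its scale is not stated.

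Starts were turned to count from 1. Genes came from GENCODE release 44 placed on hg19, checked by the length of chromosome 1 (249250621 bp). The reference transcript was the one with the longest coding sequence, MANE Select for all 6 genes. RefSeq protein sequences were not used here; proteins were translated from the genome, and repeats were found by cysteine patterns. A propeller stretch is at least 200 residues between such repeats with a YWTD-like motif, the transmembrane stretch the most hydrophobic 21 residues, and class A repeats within 100 residues form a cluster. A peak took the region of its largest overlap.

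Members and gene lists were chosen with earlier results of these data known. All peaks of the 6 genes were named, and of the lists of ligands and of Wnt partners the 3 genes with the most peaks, with ties. The rule did not cover the marker lists, and the markers and PIEZO2 were named after their values were seen. The list of other receptors of the family is not reported here. Scripts ran in Python 3.11.15 (scipy 1.17.1 for intervals, numpy 2.4.6 and, for the plots, matplotlib 3.10.9), and the counting steps were tested on simulated data. Alternatives changed the score, length, exons, overlap, merging and percentile.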

Additional observations from a re-analysis of the deposited data

How the results depend on the processing

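The LRP peak counts, 22 in HL-60 and 9 in HL60/MX2, were 13 and 4 with scores at or above the median of each list, and 14 in HL-60 with peaks of at least 50 bp. That length also brought the LRP1B difference between the lines from 7 to 0 by removing 7 short HL-60 peaks. The LRP2 difference of 4 fell to 2 with scores at or above the median. The single shared peak became 0 when at least 50% of both peaks had to overlap, or with those scores. All other alternatives left these values within 1.5 times, and the coding shares and score percentiles moved by less than their interval or spread. Counting adjoining peaks once was chosen after seeing the data. No paired analysis was possible because each line has 1 enriched library. Precision is limited by how few peaks these genes hold, and the depth is unknown.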
